A study of Mus musculus with 8 samples.

Results

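Cytochrome c oxidase assembly factors are proteins that build the terminal enzyme of the respiratory chain and are not part of the finished enzyme. The 10 genes described here were chosen for their role, as Sco1, Sco2, Surf1, Cox10, Cox11, Cox14, Cox15, Cox18, Cox20 and Coa3. The rule itself used no measured value. Of these, 9 had a row among the 14012 genes of the count table, and Sco2 was not analysed here. Genes with few reads had been left out of the table by the authors, and no further filter was applied. The 9 genes had 69 to 1493 read pairs per gene and library.

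RNA was taken from the quadriceps femoris (QF), a thigh muscle, of 4 mice labelled Grpel1 knockout (Grpel1 skm-/-) and 4 labelled Grpel1 flox/flox control, and polyadenylated RNA was sequenced with 1 library per mouse. Grpel1 encodes a nucleotide exchange factor of the matrix Hsp70 that pulls proteins into mitochondria. Both groups carry the floxed Grpel1 allele. The knockout mice carry a tamoxifen-inducible Cre recombinase driven by the human skeletal actin promoter, which acts in muscle fibres. Tamoxifen injections began at 5 weeks of age. The study calls flox/flox littermates untreated in its account of body weight. Its weight curves show flox/flox mice with Cre but no tamoxifen, and also flox/flox mice with tamoxifen but no Cre. Whether the sequenced controls carried Cre or received tamoxifen is not stated in the sources used here. The age at which each sequenced mouse was sampled is not given by the labels. The comparison asks how mRNA levels in muscle differed between the labelled groups. The study presents the knockout as a model of impaired protein import into the mitochondrial matrix, and import was not measured in these data.

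Cytochrome c oxidase (COX) passes electrons from cytochrome c to oxygen. Its core subunits COX1, COX2 and COX3 are encoded in mitochondrial DNA, while the remaining subunits and all assembly factors are encoded in the nucleus and imported. COX1 receives haem a and a copper ion, COX2 receives a pair of copper ions, and separate sets of factors look after each subunit before they are joined, so the genes are described below by the subunit they serve. Inherited loss of several of these factors causes mitochondrial disease in humans.

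Total counts per library ran from 16017565 to 20361144. The scaling factors of the trimmed mean of M values (TMM), which set how library totals are turned into CPM (counts scaled to a common library size), were 0.75 to 0.84 in the control libraries and 1.19 to 1.33 in the knockout libraries, so the scaling itself differed between the groups. Grpel1 was counted at 68.4 ± 3.04 CPM in controls and 65.3 ± 6.11 CPM in knockouts (SD, n = 4 each), with a log2 fold change of -0.07 (SE 0.08, edgeR adjusted p = 0.487). The TMM-scaled level of the targeted gene therefore did not separate the labelled groups, and its raw counts, at 861 to 1087 in controls and 1461 to 1658 in knockouts, were higher in the knockouts. Fibre markers were abundant in every library, with a summed level of 97302 to 120745 CPM in controls and 37317 to 48354 CPM in knockouts, and 5 of the 7 were lower and 2 higher in knockouts.

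Promoter sequences are shown for Sco1 and Cox10 because these 2 genes changed in opposite directions, as given below, and both hold the letters bound by GABP (also called NRF2), a factor known for its sites at COX genes. The stretches are the 100 bases before the annotated start, read 5′ to 3′ on the strand of the gene from RefSeq (GRCm38.p6). They lie at chr11:67052570-67052669 on the plus strand for Sco1 and at chr11:64079473-64079572 on the minus strand for Cox10. Capitals mark CCGGAAG or its reverse complement.
Sco1: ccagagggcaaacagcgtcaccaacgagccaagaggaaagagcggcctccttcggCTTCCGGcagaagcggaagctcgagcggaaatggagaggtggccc
Cox10: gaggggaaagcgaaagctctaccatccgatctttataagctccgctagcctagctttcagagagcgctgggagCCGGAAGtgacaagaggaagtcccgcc
The letters end 39 bases before the start in Sco1, on the reverse strand, and 21 bases before it in Cox10, on the forward strand. A promoter window of 250 bases before to 50 after the start was found for 9 of the 10 genes, Cox18 being the exception. Searched on both strands, CCGGAAG was in 6 of these 9 windows (Cox10, Cox14, Cox15, Cox20, Sco1 and Surf1) and in 8.86% of all 32851 promoter windows. Among the measured genes with these letters, Sco1 and Cox20 were higher and Cox10 and Cox14 lower in knockouts. Cox15 and Surf1 did not pass the threshold given below. The letters ATGGCGG, bound by YY1, were in the windows of Coa3, Cox10 and Cox20 and in 4.06% of all. The NRF1 motif (4.603% of all) and TGATGNAAT, a form of the ATF4 motif (0.965% of all), were in none of the 9. The 32851 windows were not limited to the genes of the count table or matched to these genes, and enrichment was not tested. These matches describe letters and not binding.

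The 9 assembly factors were called in both directions, with 2 higher, 4 lower and 3 not past the threshold. With edgeR's quasi-likelihood test on TMM-scaled counts over all 14012 genes, and a threshold of 0.01 on the Benjamini-Hochberg adjusted p, Sco1 and Cox20 were higher in knockout muscle. Cox10, Cox11, Cox14 and Coa3 were lower, and Surf1, Cox15 and Cox18 did not pass. The 6 called genes of 9 stand beside 44.7% of all genes called in this comparison. The 2 higher stand beside 23.6% called higher, which is a similar share, and the 4 lower beside 21.1% called lower. The CPM values of the groups did not overlap for 8 of the 9, against 53.4% of all genes. Changes were modest, with log2 fold changes (knockout over control) from -0.48 in Coa3 to 0.52 in Sco1 and a median of 0.16, beside 0.07 for all genes. When library totals alone were used in place of TMM, the median of all genes moved to 0.73, and 7 of the 9 genes were called higher and 0 lower, where 60.6% of all genes were called higher and 66.9% in either direction. Sco1, Cox15, Cox18, Cox20 and Surf1 then lay above the median of all genes, and Cox10, Cox11, Cox14 and Coa3 below it. All 8 libraries are bulk tissue, in which fewer cells of a type and less RNA per cell cannot be told apart.

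**Figure D1:**
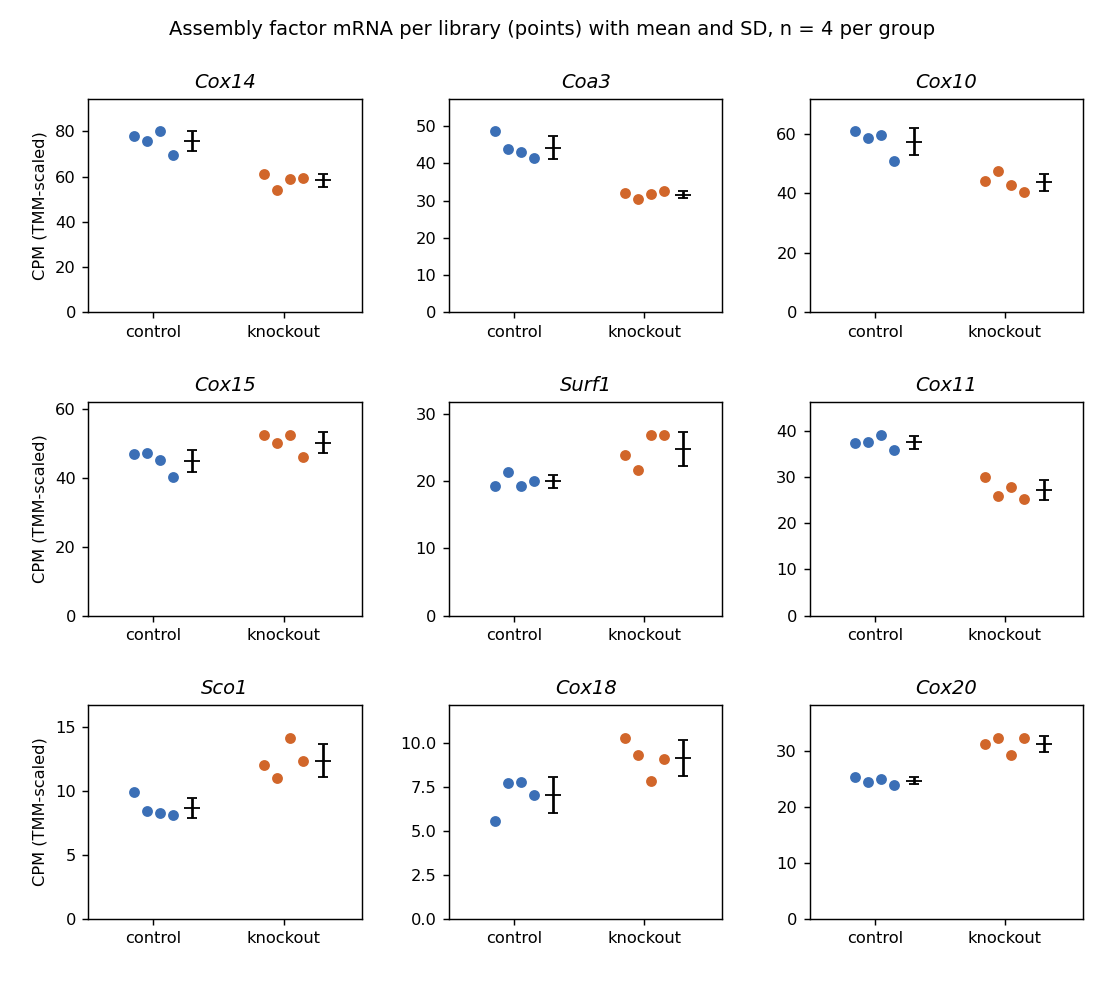
CPM (TMM-scaled, linear axis from 0) of the 9 measured assembly factors in each of the 4 control (blue) and 4 knockout (orange) libraries, with the mean and SD as a black bar. Only Cox15 has overlapping groups; Coa3, Cox10, Cox11 and Cox14 are lower in knockouts and the knockout means of the other genes are higher.

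Coa3 and Cox14 encode small inner membrane proteins that bind newly made COX1. Coa3 was counted at 48.6, 43.7, 43.0 and 41.4 CPM in the 4 controls and at 31.9, 30.3, 31.6 and 32.6 CPM in the 4 knockouts. Every knockout library lay below every control, and the knockouts were close together (SD 0.953 CPM, against 3.08 in controls). The log2 fold change was -0.48 (SE 0.07, edgeR adjusted p = 1.6e-04), a fall of 28.4%, which was the lowest value among the 9 genes. Cox14 was counted at 78.0, 75.5, 80.0 and 69.5 CPM in controls and at 61.1, 54.1, 58.9 and 59.3 CPM in knockouts. The groups again did not overlap, and the log2 fold change was -0.38 (SE 0.07, edgeR adjusted p = 9.8e-04), with Cox14 the most abundant of the 9 per length in both groups.

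Cox10 and Cox15 encode enzymes that act one after the other to turn haem b into haem a, Cox10 as haem O synthase and Cox15 in the step from haem O to haem A. Cox10 was counted at 60.8, 58.5, 59.5 and 50.7 CPM in controls and at 44.0, 47.4, 42.7 and 40.4 CPM in knockouts. The lowest control still lay above the highest knockout, with a log2 fold change of -0.39 (SE 0.08, edgeR adjusted p = 0.0017). Cox15 was counted at 46.9, 47.3, 45.2 and 40.2 CPM in controls and at 52.6, 50.2, 52.4 and 45.9 CPM in knockouts. The lowest knockout library fell among the controls, and the log2 fold change of 0.16 (SE 0.08, edgeR adjusted p = 0.0859) did not pass. For both genes the lowest value of each group was in replicate 4.

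Cox11 encodes the protein that places copper in COX1, and Surf1 a protein of the inner membrane that acts in COX1 maturation around haem a and is mutated in Leigh syndrome. Cox11 was counted at 37.5, 37.6, 39.2 and 35.9 CPM in controls and at 29.9, 25.97, 27.8 and 25.2 CPM in knockouts. The groups were well apart, and the log2 fold change was -0.46 (SE 0.07, edgeR adjusted p = 3.5e-04). Surf1 was counted at 19.3, 21.3, 19.3 and 19.9 CPM in controls and at 23.9, 21.7, 26.8 and 26.9 CPM in knockouts. All 4 knockouts lay above all controls, though the highest control and the lowest knockout were nearly level, and the log2 fold change of 0.31 (SE 0.09, edgeR adjusted p = 0.0114) missed the threshold. Without knockout replicate 2 it passed, at an edgeR adjusted p of 0.0073. Leaving out any other library did not bring it past the threshold, with an edgeR adjusted p of up to 0.0681, without knockout replicate 4. After removal of the trend of fold change on exon width, the value was 0.17 (edgeR adjusted p = 0.129). Of the 6 measured genes described here that serve COX1, 4 were thus lower, and the others had positive values that did not pass.

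On the COX2 side, Sco1 encodes a copper-binding protein that hands copper to COX2, and Cox18 and Cox20 encode proteins that help insert and hold new COX2 in the inner membrane. Sco1 was counted at 9.86, 8.38, 8.23 and 8.13 CPM in controls and at 11.97, 10.99, 14.1 and 12.3 CPM in knockouts. Control replicate 1 stood above the other controls but below every knockout, and the log2 fold change was 0.52 (SE 0.11, edgeR adjusted p = 0.0026), a 1.43-fold level. Without knockout replicate 4 the value was 0.50 and no longer passed (edgeR adjusted p = 0.0119). Cox20 was counted at 25.4, 24.5, 25.05 and 23.9 CPM in controls and at 31.4, 32.4, 29.3 and 32.3 CPM in knockouts. These groups were separate and tight, with a log2 fold change of 0.34 (SE 0.06, edgeR adjusted p = 0.0011).

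Cox18 had the fewest counts, from 69 to 118 in the control libraries and from 190 to 247 in the knockout libraries. It was counted at 5.57, 7.72, 7.80 and 7.06 CPM in controls and at 10.3, 9.34, 7.84 and 9.10 CPM in knockouts. The groups touched without overlapping, and the log2 fold change of 0.37 was larger than that of Cox20, but its standard error was 0.14 against 0.06, and it did not pass (edgeR adjusted p = 0.0355). Among the 9 genes, the 3 that serve COX2 therefore had positive values, of which 2 passed. The split of the 9 genes by the subunit they serve was seen in these values and was not tested. It covers these 9 genes only. The 20 other COX assembly factors counted below were not sorted by subunit, and 2 of them were called higher and 10 lower. The lower ones include Coa6 (-0.53, edgeR adjusted p = 5.0e-04) and Tmem177 (-0.53, edgeR adjusted p = 0.0012), which also act on COX2. The split is thus not shown for COX2 factors in general.

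Taken one gene at a time, a two-sided exact permutation test of log2 CPM gave p = 0.0286, the smallest p that 4 libraries against 4 allow, for 8 of the 9 genes, and p = 0.0857 for Cox15. Groups that do not overlap always reach this smallest p, and the CPM values of 53.4% of all genes did not overlap. These p-values were not adjusted for the number of genes.

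**Figure D2:**
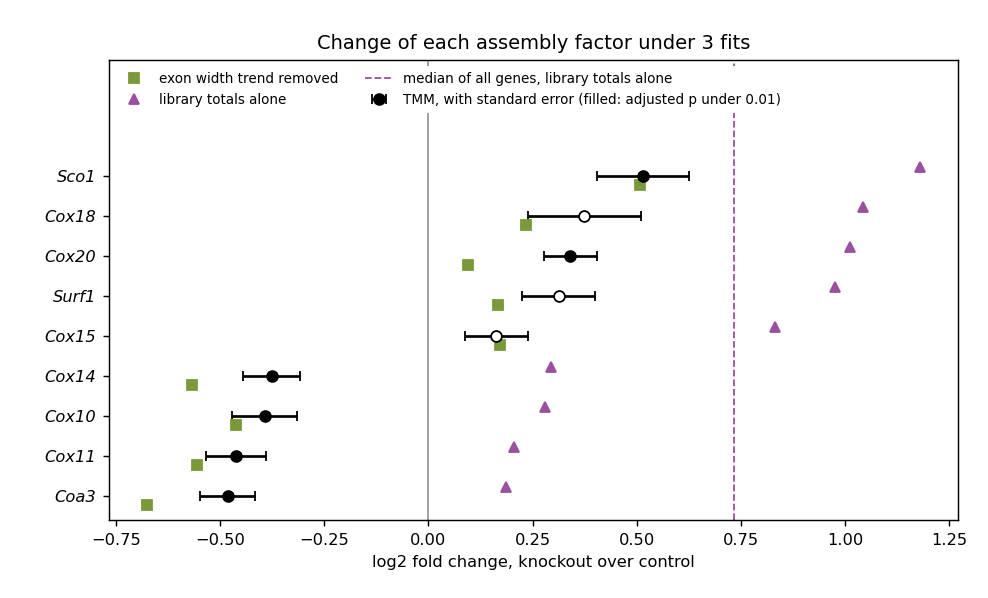
Log2 fold change (knockout over control) of each assembly factor with TMM scaling (circles, with standard error, filled where the edgeR adjusted p was under 0.01), after removal of the trend on exon width (squares) and with library totals alone (triangles). The dashed line at 0.73 is the median of all genes with library totals alone; Cox10, Cox11, Cox14 and Coa3 lie left of 0 under TMM and left of that line under library totals.

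The call of Cox20 was lost once gene length was taken into account. Its summed exon width of 448 bases is the shortest among the 9, and after removal of the trend of fold change on exon width its value was 0.10 (edgeR adjusted p = 0.222), while Sco1, with an exon width of 4280 bases, kept 0.51 (edgeR adjusted p = 0.0029). The 4 lower genes moved further from 0 under the same correction, to between -0.46 for Cox10 and -0.67 for Coa3.

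Macrophage markers moved with the label as well. Their summed level was 19.8 to 51.2 CPM in controls and 49.3 to 84.9 CPM in knockouts, with all 5 counted in every library. Of the 5, 1 (Cd68) was called higher, beside 23.6% of all genes. With the mean log2 CPM of the 5 markers in each library as a covariate, 0 assembly factors were called higher and 1 (Coa3) lower. The share of all genes called then fell to 20.7%. The fitted values kept their directions, with Sco1 at 0.46 (edgeR adjusted p = 0.0842) and Cox18 at 0.66 (edgeR adjusted p = 0.0355). In the fit without a covariate, 21.1% of all genes were called lower and 44.7% in either direction. There endothelial markers were lower for 4 of 4 genes (233 to 344 CPM summed in controls, 167 to 187 in knockouts) and fibroblast markers for 3 of 5 (1292 to 1819 and 529 to 774). The other fibroblast markers, Pdgfra at -0.15 and Lum at 0.42, did not pass. Adipocyte markers, at 30.6 to 890 CPM in controls and 373 to 1591 in knockouts, and Schwann cell markers, at 25.8 to 86.3 and 39.3 to 64.6, had 0 called of 6 and of 4. The part of these cells in the values of the assembly factors was not tested beyond the covariate fits.

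A ratio of 2 genes within 1 library does not depend on how libraries are scaled, so pairs with a shared role were compared this way. The log2 ratio of Cox15 to Cox10 counts was -0.37, -0.31, -0.39 and -0.33 in the 4 controls and 0.26, 0.08, 0.29 and 0.18 in the 4 knockouts. Cox10 had the more counts in every control and Cox15 in every knockout, without regard to length, and Cox15 has the longer exons (4798 against 2921 bases). Per kilobase, Cox10 lay above Cox15 in all 8 libraries, at 17.3 to 20.8 against 8.38 to 9.85 CPM per kb in controls and at 13.8 to 16.2 against 9.58 to 10.96 in knockouts. The mean log2 ratio moved from -0.35 ± 0.04 to 0.20 ± 0.09 (SD, n = 4 each), a difference of 0.55 or 1.47-fold, at the smallest p the exact permutation test allows (two-sided p = 0.0286, Benjamini-Hochberg adjusted p = 0.0857 over 3 pairs). Leaving out any 1 library gave differences from 0.53 to 0.60.

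The other two pairs differed by less, and their groups overlapped. The log2 ratio of Coa3 to Cox14, both partners of new COX1, was -0.78 ± 0.09 in controls and -0.88 ± 0.04 in knockouts, a difference of -0.11 (two-sided exact permutation p = 0.0857, adjusted p = 0.129). The log2 ratio of Cox20 to Cox18, both partners of new COX2, was 1.80 ± 0.24 in controls and 1.77 ± 0.12 in knockouts, a difference of -0.03 (two-sided exact permutation p = 0.886, adjusted p = 0.886). Control replicate 1 held the highest Cox20 to Cox18 ratio, at 2.16, and the lowest Cox18 count, at 69. Without that library the difference was 0.09.

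**Figure D3:**
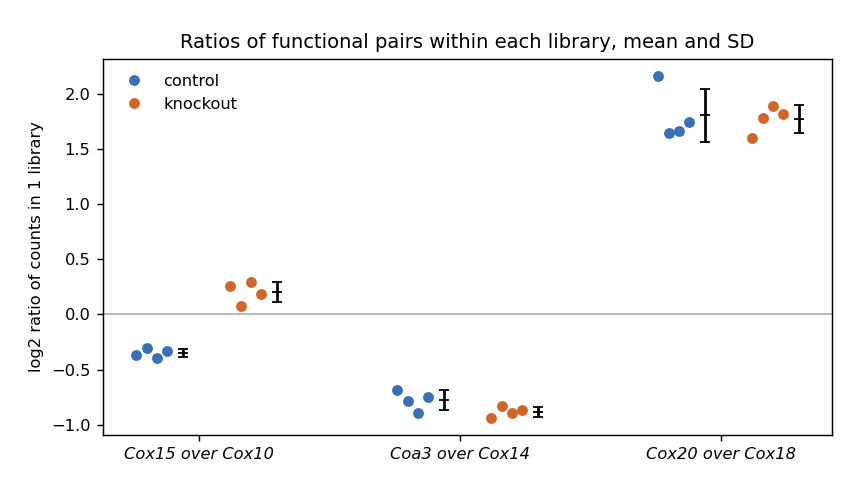
Log2 ratio of the counts of 2 genes in the same library, for 3 pairs, in 4 control (blue) and 4 knockout (orange) libraries, with mean and SD as black bars. The Cox15 to Cox10 ratio is below 0 in every control and above 0 in every knockout, while the groups overlap for the other two pairs.

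Per kilobase of exon, the control levels fell in the order Cox14 (105 ± 6.29 CPM per kb), Coa3 (61.5 ± 4.29), Cox20 (55.2 ± 1.47), Cox10 (19.6 ± 1.56), Cox11 (16.6 ± 0.608), Surf1 (16.4 ± 0.798), Cox15 (9.36 ± 0.680), Cox18 (5.27 ± 0.773) and Sco1 (2.02 ± 0.190), all SD with n = 4. The ranges of Cox10 and Cox11, and those of Cox11 and Surf1, overlapped, and no other neighbours did. In knockouts Cox20 (69.9 ± 3.22) stood above Coa3 (44.0 ± 1.33), and Surf1 (20.4 ± 2.07) above Cox10 (14.9 ± 1.003) and Cox11 (12.1 ± 0.930), with no overlap between neighbours. Sco1 remained the lowest, at 2.88 ± 0.305. The summed level of the 9 genes was 297 to 332 CPM in controls and 282 to 297 CPM in knockouts.

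Some of the counts are uncertain because the genes share bases with a neighbour on the other strand, and whether strand was used in the counting is not stated. The percentages below are of exon bases in the GENCODE M21 annotation of GRCm38, which can differ from the exons that were counted. For Cox11 (chromosome 11, 90638184 to 90645977) 48.4% overlap Tom1l1, whose log2 fold change was 0.01. In the deposited table the spans of Cox11 and Tom1l1 share only 287 bases, and the exon width of Cox11 is 2259 bases. For Cox20 (chromosome 1, 178319153 to 178322693) 91.1% overlap Hnrnpu, which rose by 0.65 on the log2 scale, although the spans given in the deposited table for these genes do not meet. Surf1 shares 7.82% with Surf2, which rose by 0.87 on the log2 scale, Coa3 9.26% with Cntd1, Cox15 9.05% with Entpd7, and Cox10 1.61% with an antisense RNA. For Sco2, 68.3% of the exon bases are shared with Tymp on the same strand. The part of these neighbours in the counts was not tested.

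Further genes of the pathway were counted by list. Among 20 other COX assembly factors, 2 rose and 10 fell, where 23.6% of all genes were called higher and 21.1% lower. Their median was -0.31 on the log2 scale, beside 0.16 for the 9 genes and 0.07 for all genes. Removing the trend on exon width took these medians to -0.50, 0.10 and 0.01. The extremes among those called were Coa4, a small intermembrane space protein, at 0.87 (SE 0.15, edgeR adjusted p = 8.3e-04), and Coa7, another intermembrane space factor, at -1.26 (SE 0.10, edgeR adjusted p = 3.4e-06). Coa7 fell from 26.6 ± 1.21 to 11.1 ± 1.35 CPM (SD, n = 4 each), further than any of the 9 assembly factors. The value of every called gene among the 9 lay inside the span from Coa7 to Coa4.

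The enzyme's own subunits changed over a wider range. Of 16 nuclear subunit genes, 3 were higher and 5 lower, beside 23.6% and 21.1% of all genes. Their median of -0.25 became -0.47 with the width trend removed and -0.081 with the macrophage covariate. The called genes ran from Cox7a1, the isoform of heart and skeletal muscle, at -2.09 (SE 0.11, edgeR adjusted p = 3.2e-07) to Cox8a, the common isoform of its subunit, at 1.54 (SE 0.22, edgeR adjusted p = 1.8e-04). All 3 mitochondrial subunit genes were lower. mt-Co1 (COX1) fell by 1.72 on the log2 scale (SE 0.14), from 34755 ± 863 to 10535 ± 1330 CPM (SD, n = 4 each, edgeR adjusted p = 5.0e-06). mt-Co2 (COX2) and mt-Co3 (COX3) were also called lower, with log2 fold changes of -1.762 and -1.604 at 42 to 151 counts per library. The authors left out read pairs that map to several places, and the part of that step in the low counts of mt-Co2 and mt-Co3 was not tested. Coa3, Cox14, Cox10 and Cox11, whose proteins serve COX1, fell by less than 0.5 on the log2 scale.

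Genes that supply copper and haem and complex I assembly factors were counted next, beside 23.6% of all genes called higher and 21.1% called lower. Of 7 copper genes, 2 were higher and 3 lower, from Slc31a2, a relative of the copper importer, at -0.80 (SE 0.12) to Ccs, the copper chaperone of superoxide dismutase, at 0.53 (SE 0.10), with edgeR adjusted p of 2.1e-04 and 9.6e-04. Of 10 haem genes, 1 was higher and 4 lower. Alas1, the first and rate-limiting enzyme of haem synthesis, was at -0.87 (SE 0.13, edgeR adjusted p = 3.0e-04), and Fdxr, the reductase that feeds electrons to mitochondrial ferredoxins, at 0.77 (SE 0.13, edgeR adjusted p = 6.7e-04). Of 17 complex I assembly factors, 1 was higher (Foxred1, 0.42, SE 0.07) and 8 lower, with Ndufaf5 at -1.65 (SE 0.07) the lowest, with edgeR adjusted p of 4.0e-04 and 8.5e-08. The medians of the copper and complex I lists, at -0.25 and -0.32, became -0.16 and -0.14 with the macrophage covariate. With library totals alone the medians of these lists of assembly, subunit, copper and haem genes, other than the mitochondrial subunits, turned positive (0.35 to 0.47) and stayed below the median of all genes of 0.73.

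**Figure D4:**
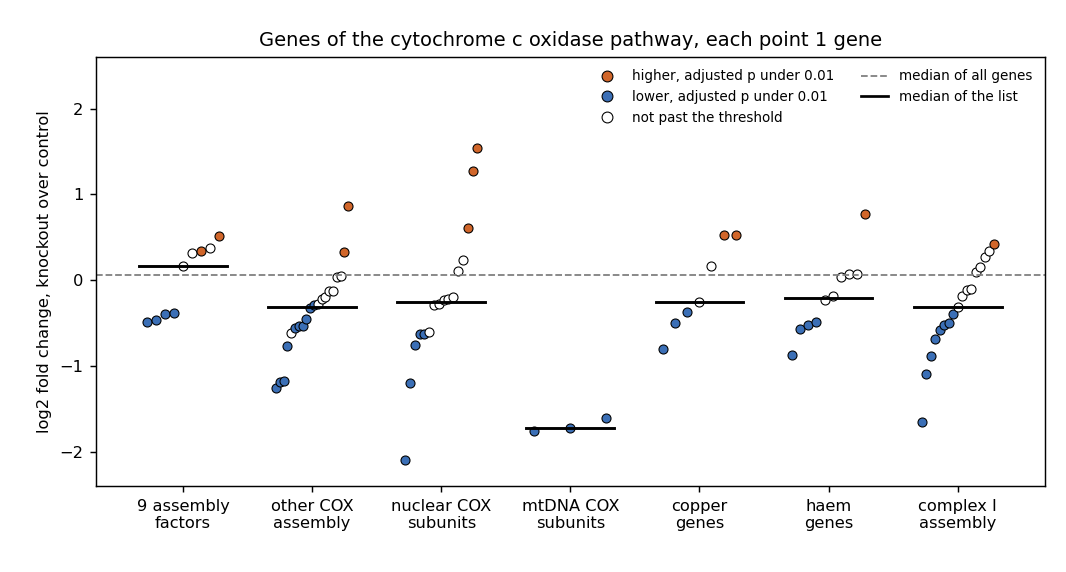
Log2 fold change (knockout over control, TMM) of each gene in 7 lists, coloured orange where higher and blue where lower at an edgeR adjusted p under 0.01 and white otherwise, with the median of each list as a black line and that of all genes (0.07) dashed. The 9 assembly factors lie between -0.48 and 0.52, a narrower span than the nuclear COX subunits, which run from -2.09 to 1.54, and all 3 mitochondrial subunits lie below -1.5.

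The genes whose pattern over the 8 libraries was closest to that of Sco1, by root mean square difference of log2 CPM centred on the controls among 11047 genes with a mean of at least 50 counts, were Clcn7 (0.050), Cirh1a (0.053) and Zbtb22 (0.060). Those closest to Coa3 were Zfp691 (0.050), 5830417I10Rik (0.055) and Dmxl1 (0.056). None of the 6 belongs to the lists above.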

How the data were processed

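QF muscle RNA was measured in 8 libraries, 4 knockout and 4 control. The raw counts per gene were deposited by the authors, who list bcl2fastq 2.20.0.422, cutadapt, STAR 2.5.4b and GRCm38, and who left out duplicate, chimeric, multimapping and poorly mapped read pairs and genes with few reads. The deposited table also holds other values made by the authors, exon widths per gene (used for length) and their DESeq2 1.32.0 comparison with FPKM values, which were not used. The annotation release and the use of strand in counting are not given in the sources used here. The kit was strand-specific.

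Counts of all genes were tested with edgeR 4.0.16 (R 4.3.3, glmQLFit and glmQLFTest, TMM, label as the only term), with Benjamini-Hochberg adjustment and a threshold of 0.01, after the script was tested on simulated data. CPM values are counts over TMM-scaled totals. A prior of 2 counts was used for log2 CPM and for ratios. Each library is 1 mouse, so the edgeR p-values judge the group difference against variation between mice. That variation was estimated with information shared across genes. At these totals, 3 counts correspond to 0.119 to 0.242 CPM. Replicates differed by more than counting noise (within groups, chi-square over its degrees of freedom was 18.1 to 43.6). Groups came from the labels.

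Named genes were all members, Grpel1, the called genes with the largest and smallest fold change of each list, the 3 mitochondrial subunits, and the 3 genes nearest in pattern to the called members at both extremes. Overlapping neighbours, Coa6, Tmem177, Cd68, Pdgfra and Lum were named for their position, for their role or after their values were seen. Members and lists were chosen with earlier results of these data known, though the rule for the members used no value. Promoters came from RefSeq, and gene overlaps from GENCODE M21. Alternatives were other scalings, DESeq2 1.42.0, filters, thresholds, covariates and leaving out libraries. Sco2, Coa1, Pet117, Cox6b2 and Atp7b were not analysed here. Coa8, Fdx2, Ndufaf8 and Dmac1 were matched by older symbols.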

Additional observations from a re-analysis of the deposited data

Results flagged for a closer look

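One value stood apart within its group. Sco1 in control replicate 1, at 9.86 CPM, lay above the other controls at 8.13, 8.23 and 8.38 CPM, a gap of 0.855 of the group's range, past the 95% critical value of Dixon's test. It was the 1 group flagged among 24 tested, and chance flags about 1 in 20. Without that library the log2 fold change of Sco1 was 0.58 (edgeR adjusted p = 0.0020).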

How the results depend on the processing

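For the 6 called genes, 16 alternative fits gave 96 values, of which 85 kept their direction and side of the threshold, 7 lost the call and 4 reversed. The 4 reversals came with library totals alone, at 0.28 for Cox10, 0.20 for Cox11, 0.29 for Cox14 and 0.19 for Coa3. There Grpel1 moved to 0.61, the median of the 9 genes to 0.83, 7 were higher and 0 lower, and list medians were 0.36 (other assembly), 0.42 (nuclear subunits), 0.41 (copper), 0.47 (haem), 0.35 (complex I assembly) and -1.06 (mitochondrial subunits). That fit called 60.6% of all genes higher and 66.9% in either direction, and 11 higher and 3 lower (other assembly), 10 and 2 (nuclear), 5 and 0 (copper), 6 and 0 (haem) and 9 and 2 (complex I). The macrophage covariate gave 0 higher and 1 lower for the 9 genes (adjusted p of Cox10 0.0470, Cox11 0.0365, Cox14 0.0654 and Cox20 0.0580), 0 and 5 (other assembly), 1 and 3 (nuclear), 1 and 0 (copper), 0 and 1 (haem) and 0 higher (complex I). Removing the width trend left 1 of the 9 higher, 1 other factor higher, and 1 nuclear subunit higher and 10 lower. That correction moved the medians to 0.10 (the 9 genes), -0.50 (other assembly) and -0.47 (nuclear subunits), and the macrophage covariate to -0.081 (nuclear subunits), -0.16 (copper) and -0.14 (complex I assembly). The adipocyte covariate left 1 other factor higher. DESeq2 called 10 nuclear subunits lower. An adjusted p under 0.05 gave 4 of the 9 genes higher, 10 nuclear subunits lower and 3 complex I factors higher. At that threshold 31.7% of all genes were called higher and 59.1% in either direction. In either direction, the width correction called 44.4% of all genes, DESeq2 48%, the adipocyte covariate 37.5% and the macrophage covariate 20.7%. The cause of these moves was not tested. Fits without 1 library called 18.5% to 21.4% of all genes higher. Leaving out each library gave 1 to 3 of the 9 genes higher (1 without knockout replicate 4 and 3 without knockout replicate 2), 1 to 2 other factors (1 without knockout replicates 1, 3 or 4) and 1 to 3 nuclear subunits (1 without control replicate 1 or knockout replicates 1 or 4). It gave ratio differences of -0.14 to -0.073 for Coa3 over Cox14 (-0.14, exact permutation p = 0.0286, without control replicate 3) and of -0.084 to 0.086 for Cox20 over Cox18 (0.086 and 0.026 without replicate 1 of the controls or of the knockouts).

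Replicate numbers are shared by the labels but mark different mice. Deviations of same-numbered libraries correlated at r = 0.213, 0.0351, 0.512 and 0.163 over 11048 genes, and 5 of 8 libraries correlated best with their own number. With a replicate block, 2 of the 9 genes were higher and 4 lower, as without it. The Sco1 to Sco2 ratio was not run. Depth limits Cox18 most, at 69 counts in the lowest library.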
